A study of Rattus norvegicus with 12 samples.

Results

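Most genes of healthy astrocytes fell in the cortex of rats with a clot in the middle cerebral artery and stood higher where acupuncture preceded thrombolysis, while genes of reactive astrocytes rose with the clot and differed among themselves in their level after acupuncture. The 35 genes described here were taken from a list of 37 gene symbols, 29 that mark astrocytes in healthy tissue, called homeostatic here, and 8 that astrocytes raise after injury, called reactive here (Gfap, Vim, Nes, Lcn2, Serpina3n, Cd44, Steap4 and Fabp7). Of the 17268 genes in the count table, 35 were on the list, 28 homeostatic and 7 reactive, and Entpd2 and Serpina3n were not analysed here. Its rule uses gene symbols and no measured value, but the list was drawn up with earlier results of these data known.

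RNA from the cerebral cortex of adult male Sprague Dawley rats was sequenced in 12 libraries, 3 in each of 4 groups. Sham rats had the operation but no clot, and Model rats had a blood clot injected to block the middle cerebral artery, an embolic model of ischemic stroke. The rt-PA rats had the same clot and received recombinant tissue plasminogen activator, the clot-dissolving drug, at 6 h, and the rt-PA+Acu rats had the clot, acupuncture at the GV26 and PC6 points at 2 h and rt-PA. The comparisons of the study ask what the clot changes (Model against Sham), what late thrombolysis adds (rt-PA against Model) and what acupuncture adds to it (rt-PA+Acu against rt-PA). No group received acupuncture without rt-PA, and the hemisphere, the part of cortex relative to the infarct and the time of collection for these libraries are not given in the sources used here. The labels do not say that each library came from a separate rat, so p-values measure the spread between libraries.

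Astrocytes are the glial cells that clear glutamate and potassium from around synapses, hold water channels at their contacts with vessels, supply lipids in apolipoprotein particles and store glycogen. After injury they enlarge and raise intermediate filament proteins, of which Gfap is the best known, and signalling through gp130 receptors, JAK kinases and STAT3 is a known route to that response. Genes of healthy astrocytes can be lowered in the same cells, and astrocytes in the core of an infarct die. In RNA from whole cortex, fewer astrocytes and less RNA per astrocyte cannot be told apart.

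Total counts per library lay between 11678450 and 13616935. Levels are given as counts per 1000000 (CPM) of a library size normalised by the TMM method, on which 3 counts stood for 0.208 to 0.262 CPM. CPM are not scaled to transcript length, so levels of different genes are not compared. Log2 fold changes come from quasi-likelihood fits in edgeR, adjusted p-values are by the method of Benjamini and Hochberg over all genes tested in a comparison, and a gene is said to rise or fall when its adjusted p is under 0.05. A differentially expressed gene (DEG) also has an absolute log2 fold change over 1. Homeostatic astrocyte genes were well detected in Sham cortex, where the 28 genes together held 1.395% to 1.679% of all counts, and Gfap held 0.0345% to 0.0398%. Within each group the same libraries were often the extreme ones at these genes. Replicate 3 of rt-PA+Acu was the lowest of its group at 21 of 28 homeostatic genes and the highest at 6 of 7 reactive genes, and replicate 1 of that group was the highest at 22 homeostatic genes. Replicate 2 was the highest of the Sham libraries at 23 homeostatic and 5 reactive genes, replicate 3 the highest of Model at 21 homeostatic genes, and replicate 1 the highest of rt-PA at 6 reactive genes.

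The clot lowered most homeostatic astrocyte genes and raised most reactive ones. In Model against Sham, 25 of 28 homeostatic genes fell and 0 rose, where 26.6% of the 12884 genes tested fell and 27.3% rose, and 23 of the 25 were DEGs, a call made in the lower direction for 12% of all genes. The median log2 fold change of the 28 genes was -1.70, against 0.0142 for all genes. Of the 7 reactive genes, 6 rose and 5 were DEGs, where 9.43% of all genes were DEGs in that direction, with a median of 3.10, and Steap4 did not pass the test. Groups did not overlap at 26 of 28 homeostatic and 6 of 7 reactive genes, as at 63.6% of all genes. No call of a homeostatic or reactive gene in this comparison was lost under an alternative in which the gene was tested, and Btbd17 was not tested with a minimum of 10 counts in every library, where the homeostatic count was 24.

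**Figure D1:**
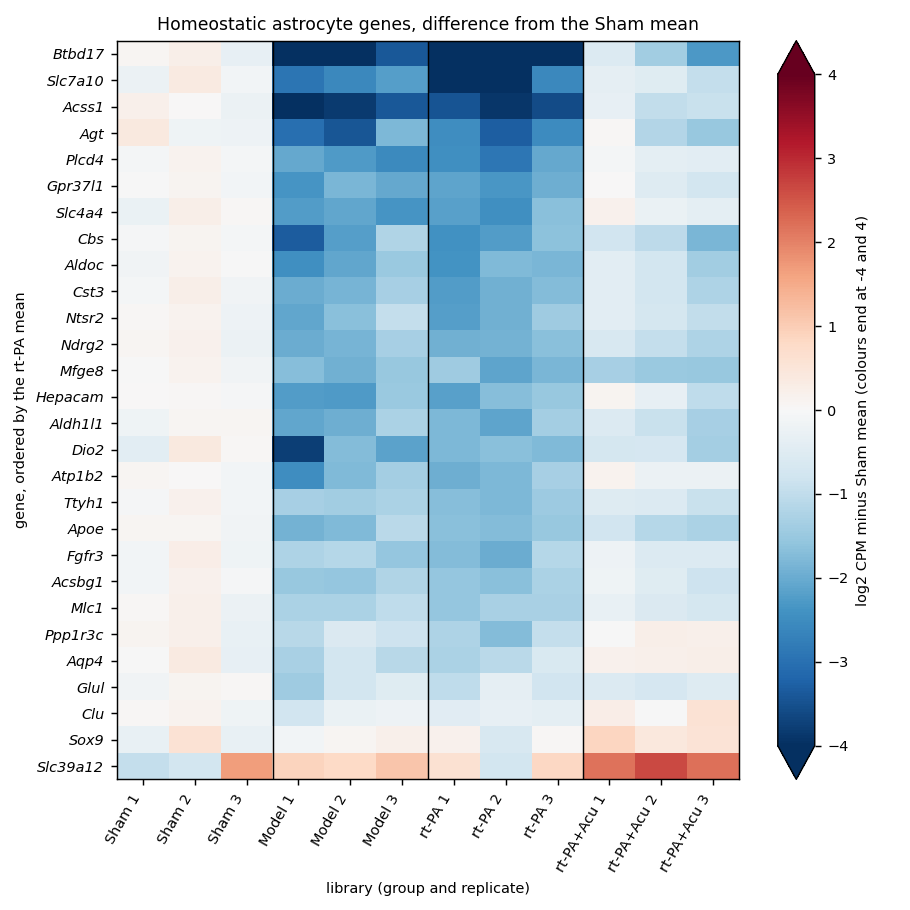
Each row is 1 of the 28 homeostatic astrocyte genes and each column 1 library, and the colour gives log2 CPM minus the mean of the 3 Sham libraries, blue below and red above it, with colours ending at -4 and 4. Model and rt-PA columns are blue in all rows except the lowest few, and rt-PA+Acu columns are paler, with replicate 3 the bluest of the 3 in most rows.

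No astrocyte gene passed the test between rt-PA and Model libraries. In rt-PA against Model, 0 of the 27 homeostatic genes tested and 0 of 7 reactive genes passed, as did 0% of all 12941 genes tested, with smallest adjusted p-values of 0.434 and 0.274. At an unadjusted p under 0.05, 1 of 27 homeostatic and 3 of 7 reactive genes passed, against 9.92% of all genes, and DESeq2 called 1 member, Vim, at a log2 fold change of 0.66 (SE 0.13) in edgeR. The median log2 fold change was -0.0651 for homeostatic and 0.477 for reactive genes. Btbd17 was too low in these 6 libraries to be tested. Against the Sham libraries, which both comparisons with Sham share, 26 of 28 homeostatic genes fell in rt-PA (27.3% of the 13023 genes tested fell) and 5 of 7 reactive genes rose (27.4% of all rose).

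With acupuncture before rt-PA, homeostatic genes stood higher than with rt-PA alone, while 3 of 7 reactive genes fell and 1 rose. In rt-PA+Acu against rt-PA, 26 of 28 homeostatic genes rose and 0 fell, where 17% of the 12999 genes tested rose and 17.7% fell, and 18 were DEGs, against 7.17% of all genes in that direction. Btbd17, among the 26 and the 18, was tested here only through its rt-PA+Acu libraries. With a minimum of 10 counts in every library it was not tested, and the homeostatic count was 25. The median log2 fold change of the 28 genes was 1.16, and the groups did not overlap at 25 of them, as at 51.1% of all genes. Of the reactive genes, 3 fell as DEGs (Vim, Nes and Cd44), where 8.16% of all genes did, 1 rose (Fabp7), and Gfap, Lcn2 and Steap4 did not pass. The log2 fold change was below 0 at 6 of 7 reactive genes, all except Fabp7. Gfap also fell when rt-PA+Acu replicate 3 was left out (-0.57). Without each library in turn the homeostatic count was 22 to 25 and the reactive count 2 to 5, the latter 2 without rt-PA replicate 1 and 2 without rt-PA+Acu replicate 2.

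Against Sham, fewer astrocyte genes passed in rt-PA+Acu than in Model. In rt-PA+Acu against Sham, 8 of 28 homeostatic genes fell and 0 rose, where 3.4% of the 12775 genes tested fell and 1.7% rose, and 4 of 7 reactive genes rose. Of these calls, 3 homeostatic genes were DEGs, against 1.14% of all genes in that direction, and 3 reactive genes, against 0.916%. The groups did not overlap at 19 of the 28 homeostatic genes, as at 30.8% of all genes. The median log2 fold change of homeostatic genes was -0.596, and that of reactive genes 1.66. Of the 25 homeostatic genes that fell in Model, 23 rose with acupuncture over rt-PA alone, and of these 23, 17 did not pass the test against Sham and 6 were below it (Aldh1l1, Ndrg2, Ntsr2, Cbs, Apoe and Ttyh1). These counts come from comparisons that share libraries. Among the 17, DESeq2 called Aldoc, Mlc1, Cst3, Btbd17, Dio2 and Acss1 lower than Sham. Not passing in edgeR is therefore not a return to the Sham level. The count of 8 was not kept in fits with 1 library left out. It was 1 without Sham replicate 1, 1 without Sham replicate 2 and 3 without Sham replicate 3. Without rt-PA+Acu replicates 1, 2 and 3 it was 14, 2 and 9. Over all genes the count of 651 moved as well, to 191, 112 and 205 without Sham replicates 1, 2 and 3. For rt-PA+Acu replicates 1, 2 and 3 left out, the count over all genes was 856, 331 and 815. Likewise the reactive count was 1, Gfap alone, without any 1 of the Sham libraries. Mfge8 and Gfap kept their calls under each alternative tried.

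Library by library, the median homeostatic gene lay below the Sham mean by log2 values of -2.014, -1.798 and -1.326 in Model replicates 1 to 3, -1.859, -1.848 and -1.51 in rt-PA, and -0.3062, -0.5562 and -0.8842 in rt-PA+Acu. For the median reactive gene these differences were 2.668, 3.225 and 2.794 in Model, 3.04, 2.997 and 3.132 in rt-PA, and 0.9574, 0.9107 and 2.613 in rt-PA+Acu. Each rt-PA+Acu library was nearer to Sham than any Model or rt-PA library on both measures, with replicate 3 the nearest to Model. Against Model, 22 of 28 homeostatic genes rose and 2 of 7 reactive genes fell in rt-PA+Acu (percent of all genes called, 17.4 higher and 16.9 lower of 12855), and the homeostatic count was 14 without Model replicate 2.

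**Figure D2:**
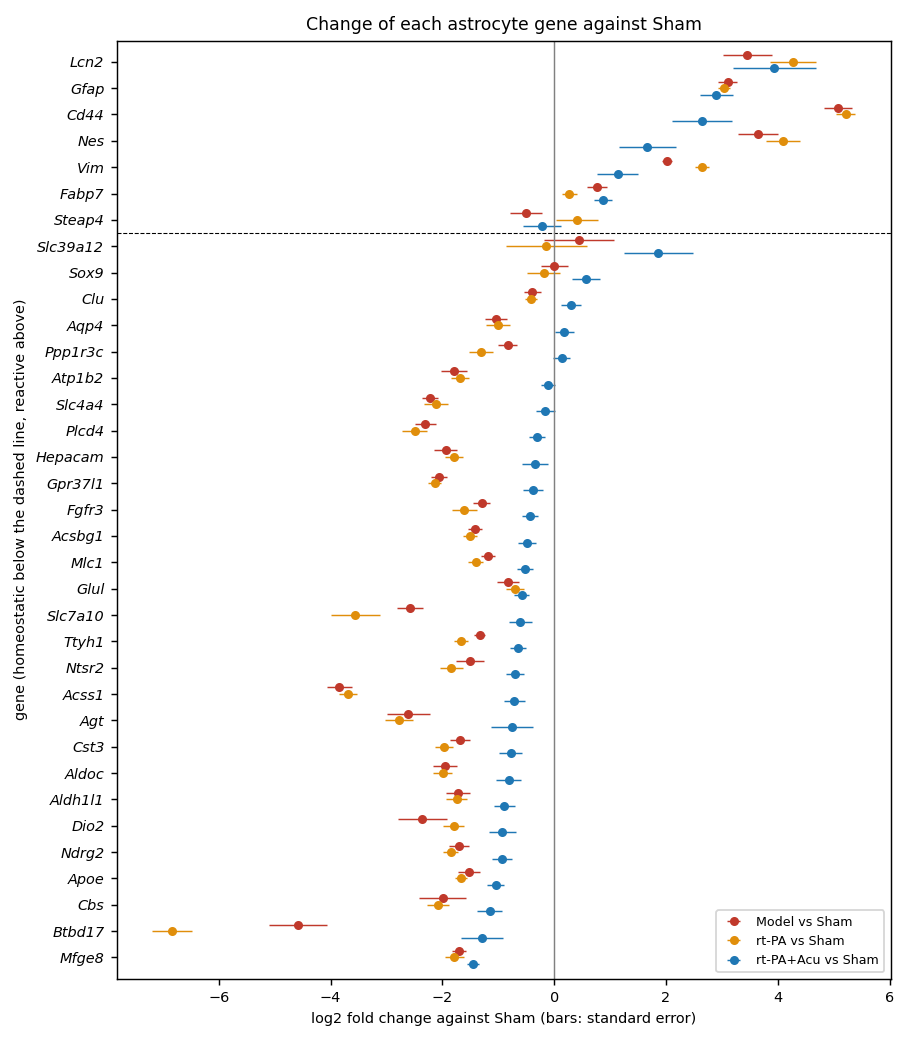
Log2 fold change against Sham (points, with standard errors as bars) of the 35 astrocyte genes in Model (red), rt-PA (orange) and rt-PA+Acu (blue), homeostatic genes below the dashed line and reactive genes above it. Blue points lie nearer to 0 than red and orange ones at most homeostatic genes and at Cd44, Nes and Vim, and close to them at Lcn2, Gfap and Mfge8; the 3 sets share the Sham libraries.

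Intermediate filaments, the cytoskeletal proteins that fill the processes of reactive astrocytes, are encoded by 3 of the 7 reactive genes. Gfap, the filament protein that defines them, measured 397, 414 and 363 CPM for Sham, 2485, 4085 and 3456 for Model, 3215, 3121 and 3426 for rt-PA and 2189, 2184 and 4378 for rt-PA+Acu. Every injured library lay above the highest Sham library, and the 3 injured groups overlapped with each other. Its log2 fold change was 3.10 (SE 0.18, adjusted p = 1.21e-05) in Model against Sham, -0.15 (SE 0.28, adjusted p = 0.694) in rt-PA+Acu against rt-PA and 2.90 (SE 0.29, adjusted p = 0.00314) in rt-PA+Acu against Sham. In the middle comparison rt-PA+Acu replicate 3 decided the outcome, since without that library the gene fell, at -0.57 (adjusted p = 0.0111).

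Vim, which encodes vimentin, a filament protein also made by endothelial and immune cells, measured 42.6, 49.0 and 46.3 CPM for Sham, 187, 195 and 173 for Model, 346, 264 and 264 for rt-PA and 89.2, 48.5 and 164 for rt-PA+Acu. Each Model and rt-PA library lay above Sham, and the rt-PA+Acu libraries ran from the Sham range up to nearly the Model range. It rose by a log2 fold change of 2.02 (SE 0.095, adjusted p = 5.98e-06) in Model and fell in rt-PA+Acu against rt-PA at -1.53 (SE 0.39, adjusted p = 0.0218), a call lost without rt-PA replicate 1 (-1.39) or rt-PA+Acu replicate 1 (-1.44). Against Sham the rt-PA+Acu value was 1.13 (SE 0.37, adjusted p = 0.119), which passed in DESeq2 (adjusted p = 0.0155) and, in edgeR, without rt-PA+Acu replicate 2 (1.47, adjusted p = 0.0344).

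Nes, or nestin, the filament of neural progenitors that reactive astrocytes and vessel cells can take up again, measured 10.6, 16.1 and 11.4 CPM for Sham, 229, 158 and 87.4 for Model, 318, 159.9 and 182 for rt-PA and 19.6, 23.0 and 77.1 for rt-PA+Acu. All libraries of rt-PA+Acu were above Sham and below Model and rt-PA, with replicate 3 the highest of them. Its log2 fold change was 3.65 (SE 0.35, adjusted p = 0.000104) in Model, -2.45 (SE 0.55, adjusted p = 0.0136) in rt-PA+Acu against rt-PA, lost without rt-PA+Acu replicate 2 (-2.17), and 1.66 (SE 0.51, adjusted p = 0.102) against Sham, gained without rt-PA+Acu replicate 1 (1.99).

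Cd44, the receptor for hyaluronan in the extracellular matrix, carried by reactive astrocytes and by many leukocytes, measured 6.28, 8.64 and 6.98 CPM for Sham, 327, 217 and 192 for Model, 327, 242 and 259 for rt-PA and 22.2, 25.7 and 88.4 for rt-PA+Acu. The 4 groups took 3 levels, Sham lowest, rt-PA+Acu between, and Model and rt-PA overlapping at the top. The gene rose by 5.08 (SE 0.25, adjusted p = 6.4e-06) in Model on the log2 scale, the largest change among the 35 genes, and fell in rt-PA+Acu against rt-PA at -2.59 (SE 0.52, adjusted p = 0.00909). Against Sham it remained higher at 2.64 (SE 0.53, adjusted p = 0.0335), a call lost without any 1 of the Sham libraries (2.54 to 2.78).

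Lcn2, a secreted lipocalin that binds iron-carrying siderophores and marks reactive astrocytes as well as neutrophils, measured 2.42, 1.22 and 0.960 CPM for Sham, 10.5, 14.6 and 25.5 for Model, 37.05, 17.7 and 35.7 for rt-PA and 6.24, 18.6 and 45.7 for rt-PA+Acu. All 9 injured libraries were above Sham and the rt-PA+Acu libraries spread past the range of Model and rt-PA at both ends. It rose at 3.45 (SE 0.44, adjusted p = 0.000361) in Model and stood at -0.35 (SE 0.62, adjusted p = 0.687) in rt-PA+Acu against rt-PA. Against Sham it rose at 3.93 (SE 0.74, adjusted p = 0.0268), which did not pass without any 1 of the Sham libraries or without rt-PA+Acu replicate 2 (3.70 to 4.42).

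Fabp7, the brain fatty acid-binding protein of radial glia and astrocytes, measured 51.5, 49.3 and 37.7 CPM for Sham, 92.1, 83.7 and 58.4 for Model, 59.8, 59.4 and 50.4 for rt-PA and 69.7, 86.1 and 97.4 for rt-PA+Acu. The Model and rt-PA+Acu libraries were above every Sham library, and rt-PA libraries overlapped with Sham. The gene rose by 0.77 (SE 0.19, adjusted p = 0.00881) in Model and by 0.58 (SE 0.15, adjusted p = 0.0213) in rt-PA+Acu against rt-PA, the only reactive gene of the 7 with a call in that direction there. The call over rt-PA was lost without rt-PA replicate 1, rt-PA replicate 3 or rt-PA+Acu replicate 2 (0.50 to 0.62). Against Sham it was 0.87 (SE 0.16, adjusted p = 0.0269), lost without any Sham library or without rt-PA+Acu replicate 2 (0.74 to 0.95).

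Steap4, a metalloreductase on some reactive gene lists, measured 3.06, 4.82 and 3.93 CPM for Sham, 2.67, 2.37 and 3.22 for Model, 7.84, 5.25 and 2.88 for rt-PA and 2.61, 4.97 and 2.61 for rt-PA+Acu. The groups overlapped in each comparison, and the log2 fold change was -0.51 (SE 0.29, adjusted p = 0.172) in Model against Sham and -0.65 (SE 0.43, adjusted p = 0.273) in rt-PA+Acu against rt-PA.

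**Figure D3:**
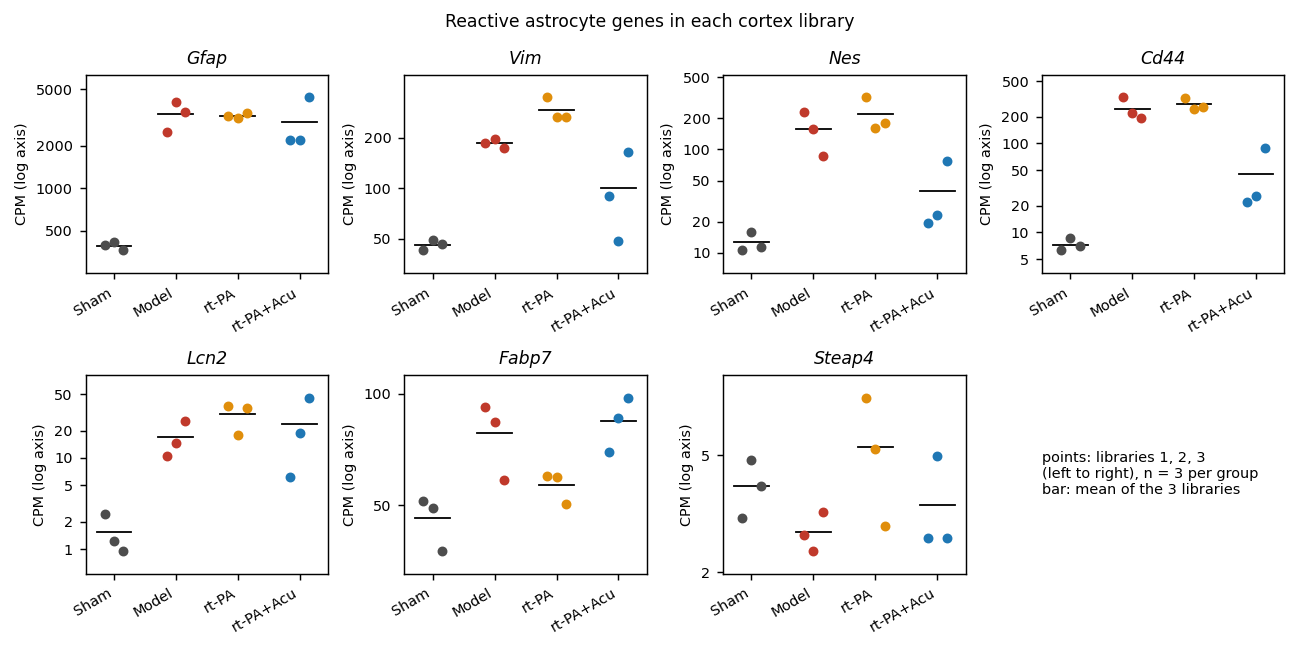
CPM on a log axis of the 7 reactive genes in each library, with libraries 1 to 3 from left to right in each group and a bar at the mean of the 3. At Vim, Nes and Cd44 the rt-PA+Acu libraries lie below the rt-PA libraries, at Gfap and Lcn2 the groups overlap, and rt-PA+Acu replicate 3 is the highest of its group in 6 of the 7 panels.

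Gfap was also set against the 3 reactive genes that fell within each library, where depth cancels. The log2 ratio of Gfap to Vim was 4.946 ± 0.4735 (SD, n = 3) in rt-PA+Acu and 3.492 ± 0.2498 in rt-PA. For Gfap to Nes the ratio was 6.392 ± 0.5059 and 3.951 ± 0.5332, and for Gfap to Cd44 it was 6.215 ± 0.5204 and 3.572 ± 0.2377. These 2 groups did not overlap for any of the 3 ratios. In Sham the ratio of Gfap to Cd44 was 5.945, 5.558 and 5.669, overlapping rt-PA+Acu. The Sham ratios to Vim (3.213, 3.076 and 2.968) and to Nes (5.211, 4.676 and 4.97) were below every rt-PA+Acu library. Since Vim, Nes and Cd44 were taken because they fell and Gfap because it did not pass the test, the ratios are a description of that choice and carry no test.

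**Figure D4:**
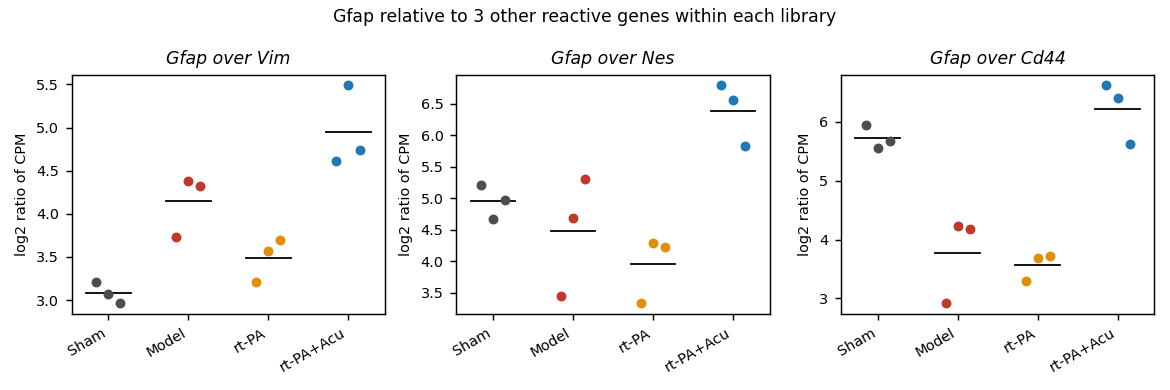
Log2 ratio of Gfap CPM to Vim, Nes and Cd44 CPM in each library (points, libraries 1 to 3 from left to right, bar at the mean). The rt-PA+Acu libraries lie above the rt-PA libraries in each panel, by mean differences of 1.454, 2.441 and 2.643.

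The sequence upstream of the reactive genes is shown because members of the list that rose in Model took different levels in rt-PA+Acu, where Vim and Nes fell against rt-PA and Gfap did not pass the test, and Steap4 did not pass in Model either. Each is the RefSeq window of 250 bases before to 50 after the annotated start in the GRCr8 assembly, which is not the build of the counts. Capitals mark TTCNNNGAA, a palindrome of the form that STAT factors bind, searched on both strands. Gfap is at chr10:88361612-88361911, minus strand, Vim at chr17:81577011-81577310, plus strand, Nes at chr2:175736338-175736637, plus strand and Steap4 at chr4:27054720-27055019, minus strand.
Gfap: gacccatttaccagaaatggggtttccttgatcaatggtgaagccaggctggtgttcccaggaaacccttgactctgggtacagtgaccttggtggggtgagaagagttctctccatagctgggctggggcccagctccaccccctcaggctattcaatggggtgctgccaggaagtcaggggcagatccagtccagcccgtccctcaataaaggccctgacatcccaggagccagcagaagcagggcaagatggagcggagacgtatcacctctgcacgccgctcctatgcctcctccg
Vim: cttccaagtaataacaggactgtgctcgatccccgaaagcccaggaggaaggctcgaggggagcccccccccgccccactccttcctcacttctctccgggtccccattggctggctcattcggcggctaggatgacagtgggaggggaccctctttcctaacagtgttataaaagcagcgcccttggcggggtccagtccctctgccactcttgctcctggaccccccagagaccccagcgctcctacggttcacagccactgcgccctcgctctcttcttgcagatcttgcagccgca
Nes: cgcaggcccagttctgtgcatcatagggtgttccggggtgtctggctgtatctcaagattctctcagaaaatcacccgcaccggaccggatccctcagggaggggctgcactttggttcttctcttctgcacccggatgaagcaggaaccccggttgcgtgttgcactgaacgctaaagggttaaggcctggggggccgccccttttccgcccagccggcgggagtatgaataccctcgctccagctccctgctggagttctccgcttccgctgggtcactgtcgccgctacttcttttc
Steap4: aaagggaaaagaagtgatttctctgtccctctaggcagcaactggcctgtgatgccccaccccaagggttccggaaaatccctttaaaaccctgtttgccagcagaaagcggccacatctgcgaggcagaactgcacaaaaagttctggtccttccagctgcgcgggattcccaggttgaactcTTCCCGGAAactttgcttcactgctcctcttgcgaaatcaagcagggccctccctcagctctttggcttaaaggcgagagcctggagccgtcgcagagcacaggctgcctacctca
Of these 4, the letters occur in the Steap4 window only, beginning 66 bases before the start. For 31 of the 35 genes 37 promoters were found, and 4 of the 37 had a match (in Acsbg1, Ntsr2, Ppp1r3c and Steap4), where 8.87% of 33469 promoters did. The letters TGANTCA, of the form bound by AP-1 factors, were in 0 of the members' windows and in 7.33% of all. A match is a description of letters and no more, and its absence applies to this window alone.

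Among genes of water and ion handling at the astrocyte surface, rt-PA+Acu libraries overlapped with Sham at Aqp4, Atp1b2 and Slc4a4. Aqp4, the water channel of endfeet on vessels, measured 699, 911 and 565 CPM for Sham, 293, 430.1 and 329 for Model, 298, 335 and 466 for rt-PA and 799, 821 and 843 for rt-PA+Acu. Model and rt-PA libraries were all below Sham, and all rt-PA+Acu libraries were inside the Sham range. It fell by a log2 fold change of -1.04 (SE 0.19, adjusted p = 0.00236) in Model and rose at 1.17 (SE 0.18, adjusted p = 0.00393) with acupuncture over rt-PA. Against Sham it was 0.18 (SE 0.17, adjusted p = 0.571). Atp1b2, the beta subunit of the glial sodium pump, measured 604, 587 and 539 CPM for Sham, 104, 169 and 225 for Model, 149, 167 and 228 for rt-PA and 631, 488 and 487 for rt-PA+Acu. Here again rt-PA+Acu overlapped with Sham, at log2 fold changes of -1.79 (SE 0.24, adjusted p = 0.000449) in Model and 1.56 (SE 0.19, adjusted p = 0.00197) over rt-PA. Slc4a4, the sodium bicarbonate cotransporter, measured 97.7, 136 and 119.8 CPM for Sham, 24.8, 27.5 and 22.7 for Model, 25.6, 21.0 and 36.5 for rt-PA and 131, 97.4 and 88.3 for rt-PA+Acu. Its Model and rt-PA libraries were all under the lowest Sham library, and the rt-PA+Acu libraries overlapped with Sham, at log2 fold changes of -2.23 (SE 0.14, adjusted p = 1.81e-05) and 1.93 (SE 0.24, adjusted p = 0.00197).

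Mlc1 and Hepacam encode partner proteins of astrocyte junctions at vessels. Mlc1 measured 427, 478 and 353 CPM for Sham, 172, 174 and 206 for Model, 143, 171 and 168 for rt-PA and 339, 282 and 257 for rt-PA+Acu. With acupuncture it lay between the rt-PA and the Sham libraries without overlap, with log2 fold changes of -1.18 (SE 0.13, adjusted p = 0.000169) in Model and 0.86 (SE 0.14, adjusted p = 0.00453) over rt-PA. Hepacam measured 99.6, 101 and 96.0 CPM for Sham, 20.9, 20.4 and 35.4 for Model, 22.0, 30.0 and 34.8 for rt-PA and 108, 78.1 and 48.8 for rt-PA+Acu. Its rt-PA+Acu replicate 1 was above every Sham library and replicate 3 was below them all, at -1.95 (SE 0.20, adjusted p = 0.000139) in Model and 1.43 (SE 0.29, adjusted p = 0.00985) over rt-PA. Ttyh1, a membrane protein of the tweety family, measured 1247, 1465 and 1206 CPM for Sham, 514, 494 and 542 for Model, 398, 373 and 477 for rt-PA and 913, 889 and 706 for rt-PA+Acu. It fell at -1.33 (SE 0.098, adjusted p = 3.25e-05), rose at 1.01 (SE 0.15, adjusted p = 0.0038), and remained under Sham at -0.65 (SE 0.14, adjusted p = 0.0413), a call lost without any 1 Sham library or without rt-PA+Acu replicate 2 (-0.70 to -0.56).

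Slc7a10, Glul and Cbs handle amino acids. Slc7a10, a transporter of small neutral amino acids including serine and glycine, measured 33.3, 51.1 and 36.7 CPM for Sham, 5.11, 6.52 and 8.51 for Model, 1.87, 2.08 and 6.49 for rt-PA and 31.0, 28.3 and 20.3 for rt-PA+Acu. It fell at -2.58 (SE 0.23, adjusted p = 7.32e-05) in Model on the log2 scale and rose by 2.93 (SE 0.47, adjusted p = 0.00453) in rt-PA+Acu over rt-PA, with all rt-PA+Acu libraries just under Sham. Glul, glutamine synthetase, the enzyme that turns glutamate into glutamine, measured 2956, 3494 and 3350.2 CPM for Sham, 1227, 1977 and 2308 for Model, 1618, 2553 and 1937 for rt-PA and 2214, 2054 and 2288 for rt-PA+Acu. The rt-PA+Acu libraries lay within the rt-PA range and below all of Sham. It fell at -0.82 (SE 0.20, adjusted p = 0.00917) in Model, was at 0.10 (SE 0.18, adjusted p = 0.682) in rt-PA+Acu against rt-PA, and fell at -0.58 (SE 0.13, adjusted p = 0.0446) against Sham, the last lost without any 1 library except rt-PA+Acu replicate 3 (-0.65 to -0.53). Cbs, which makes cystathionine from homocysteine, measured 94.9, 104 and 92.7 CPM for Sham, 9.47, 21.1 and 42.5 for Model, 17.9, 20.7 and 31.1 for rt-PA and 56.6, 47.2 and 27.5 for rt-PA+Acu. Model libraries were widely spread, and rt-PA+Acu overlapped with rt-PA at replicate 3. Its log2 fold changes were -2.00 (SE 0.42, adjusted p = 0.0044) in Model, 0.91 (SE 0.30, adjusted p = 0.0487) over rt-PA and -1.16 (SE 0.23, adjusted p = 0.0294) against Sham. The call over rt-PA was lost without rt-PA replicates 1 or 2 or rt-PA+Acu replicates 1 or 2 (0.69 to 0.86), and that against Sham without any Sham library or rt-PA+Acu replicate 2 (-1.22 to -1.11).

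Of the genes of energy and lipid metabolism, Acss1 fell furthest in Model. Acss1, the mitochondrial enzyme that activates acetate, measured 91.1, 79.5 and 66.5 CPM for Sham, 3.74, 5.42 and 7.35 for Model, 6.94, 5.17 and 6.49 for rt-PA and 62.9, 39.5 and 42.3 for rt-PA+Acu. No Model or rt-PA library came near to Sham, and rt-PA+Acu lay between, at log2 fold changes of -3.84 (SE 0.23, adjusted p = 1.48e-05) in Model and 2.96 (SE 0.23, adjusted p = 0.00104) over rt-PA. Aldoc, the brain aldolase of glycolysis, measured 1234, 1489 and 1332 CPM for Sham, 245, 319 and 479 for Model, 257, 395 and 378 for rt-PA and 1000.3, 802 and 511 for rt-PA+Acu. In rt-PA+Acu it lay below Sham in each library, with replicate 3 just above the highest Model library, at -1.95 (SE 0.22, adjusted p = 0.000209) in Model and 1.17 (SE 0.27, adjusted p = 0.014) over rt-PA. Acsbg1, an acyl-CoA synthetase for long-chain fatty acids, measured 304, 371 and 315 CPM for Sham, 114, 111 and 144 for Model, 112, 104 and 137 for rt-PA and 290.3, 233 and 185 for rt-PA+Acu. It fell at -1.42 (SE 0.13, adjusted p = 7.17e-05) and rose at 1.01 (SE 0.18, adjusted p = 0.00697), its groups in the order rt-PA, rt-PA+Acu and Sham without overlap.

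Aldh1l1, the folate enzyme widely used to label astrocytes, measured 35.8, 42.8 and 42.1 CPM for Sham, 9.31, 10.2 and 16.8 for Model, 11.4, 9.27 and 15.7 for rt-PA and 27.6, 21.7 and 15.9 for rt-PA+Acu. The rt-PA+Acu libraries were above rt-PA by a narrow margin at replicate 3 and below all of Sham. Log2 fold changes were -1.73 (SE 0.22, adjusted p = 0.000347) in Model, 0.84 (SE 0.26, adjusted p = 0.043) over rt-PA and -0.89 (SE 0.19, adjusted p = 0.0384) against Sham. Each of the last pair was lost without 1 library, the first of them without rt-PA replicates 1 or 2 or rt-PA+Acu replicates 1 or 2 (0.63 to 0.84) and the second without any Sham library or rt-PA+Acu replicate 2 (-0.97 to -0.85). Ppp1r3c, which brings a phosphatase to glycogen and so favours its storage, measured 70.6, 74.7 and 52.6 CPM for Sham, 30.2, 43.8 and 36.8 for Model, 27.5, 19.5 and 33.7 for rt-PA and 65.1, 76.9 and 75.0 for rt-PA+Acu. Its rt-PA+Acu libraries overlapped with Sham, at -0.83 (SE 0.17, adjusted p = 0.00392) in Model and 1.43 (SE 0.20, adjusted p = 0.00301) over rt-PA. Dio2, the deiodinase that activates thyroid hormone in astrocytes, measured 149.7, 265 and 207 CPM for Sham, 14.8, 60.3 and 45.8 for Model, 58.4, 62.9 and 59.7 for rt-PA and 123, 126 and 78.1 for rt-PA+Acu. Model replicate 1 was far under the other Model libraries, and rt-PA+Acu lay below Sham throughout, at -2.36 (SE 0.44, adjusted p = 0.00237), 0.86 (SE 0.18, adjusted p = 0.011) and, against Sham, -0.93 (SE 0.24, adjusted p = 0.0648), which passed in DESeq2 (adjusted p = 0.0031). The call over rt-PA was lost in 1 fit over all 12 libraries.

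Of the secreted proteins, Apoe and Mfge8 stood below Sham in rt-PA+Acu. Apoe, the main lipid carrier of the brain, made also by microglia and macrophages, measured 2192, 2178 and 1897 CPM for Sham, 564, 614 and 987 for Model, 653, 620.0 and 727 for rt-PA and 1221, 948 and 875 for rt-PA+Acu. Model replicate 3 was above 2 of the rt-PA+Acu libraries, and no injured library reached the lowest Sham library. It fell at -1.53 (SE 0.20, adjusted p = 0.000412) in Model, rose at 0.61 (SE 0.15, adjusted p = 0.0209) over rt-PA and fell at -1.04 (SE 0.15, adjusted p = 0.0116) against Sham, all on the log2 scale. The call over rt-PA was lost without rt-PA replicate 1, rt-PA replicate 2 or rt-PA+Acu replicate 1 (0.46 to 0.59), and that against Sham without Sham replicate 1 or 2 (-1.02 to -1.01). Mfge8, a bridging protein by which phagocytes take up dying cells, measured 175, 192 and 159 CPM for Sham, 54.0, 46.1 and 60.5 for Model, 64.9, 40.5 and 48.7 for rt-PA and 69.4, 62.0 and 60.7 for rt-PA+Acu. The injured groups all lay under Sham, with rt-PA+Acu overlapping rt-PA. Its log2 fold change was -1.70 (SE 0.12, adjusted p = 3.1e-05) in Model, 0.32 (SE 0.18, adjusted p = 0.193) in rt-PA+Acu against rt-PA, past the test without rt-PA replicate 1 (0.52), and -1.46 (SE 0.11, adjusted p = 0.00188) against Sham.

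Cst3, cystatin C, an inhibitor of cysteine proteases also abundant in microglia, measured 1632, 2012 and 1559.5 CPM for Sham, 436, 479.5 and 691 for Model, 363, 458 and 516 for rt-PA and 1277, 1027 and 739.6 for rt-PA+Acu. It fell at -1.69 (SE 0.18, adjusted p = 0.000165) and rose at 1.19 (SE 0.22, adjusted p = 0.00735) over rt-PA, with every rt-PA+Acu library between the rt-PA and Sham libraries. Agt, angiotensinogen, which brain makes mainly in astrocytes, measured 123, 83.4 and 82.1 CPM for Sham, 11.6, 8.72 and 26.8 for Model, 16.9, 9.41 and 16.4 for rt-PA and 97.9, 41.5 and 32.6 for rt-PA+Acu. Among rt-PA+Acu libraries, replicate 1 was in the Sham range and replicates 2 and 3 were below it, at -2.61 (SE 0.38, adjusted p = 0.000699) in Model and 2.00 (SE 0.43, adjusted p = 0.0121) over rt-PA. Clu, clusterin, another apolipoprotein, had mean CPM of 838 ± 92.1 for Sham, 634 ± 129 for Model, 636 ± 27.8 for rt-PA and 1029.9 ± 214 for rt-PA+Acu (SD, n = 3). Its log2 fold change was -0.40 (SE 0.15, adjusted p = 0.0578) in Model, past the test in DESeq2 and without Model replicate 3 (-0.41 and -0.50), and it rose at 0.70 (SE 0.17, adjusted p = 0.0167) over rt-PA, a call lost without rt-PA replicate 1 or 3 (0.66 to 0.70).

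Receptor and signalling genes on the list all fell in Model. Fgfr3, a fibroblast growth factor receptor, measured 90.0, 116 and 86.2 CPM for Sham, 40.9, 44.1 and 33.0 for Model, 29.1, 24.1 and 44.1 for rt-PA and 83.5, 66.7 and 66.5 for rt-PA+Acu. Its rt-PA+Acu libraries were above all of Model and rt-PA and just under Sham, at -1.30 (SE 0.15, adjusted p = 0.000238) in Model and 1.16 (SE 0.23, adjusted p = 0.00863) over rt-PA. Gpr37l1, an astrocyte G protein-coupled receptor, measured 225, 248 and 213 CPM for Sham, 44.4, 64.1 and 55.3 for Model, 53.1, 45.1 and 59.4 for rt-PA and 231, 160.1 and 136 for rt-PA+Acu. The rt-PA+Acu group overlapped with Sham at replicate 1, with log2 fold changes of -2.06 (SE 0.14, adjusted p = 2.29e-05) and 1.74 (SE 0.21, adjusted p = 0.00189). Ntsr2, a receptor for neurotensin, measured 141, 149.8 and 117 CPM for Sham, 32.0, 42.1 and 69.2 for Model, 29.4, 35.5 and 50.8 for rt-PA and 101, 82.8 and 67.8 for rt-PA+Acu. Model replicate 3 was higher than the lowest rt-PA+Acu library, and the log2 fold changes were -1.51 (SE 0.25, adjusted p = 0.00137) in Model, 1.12 (SE 0.23, adjusted p = 0.0096) over rt-PA and -0.70 (SE 0.16, adjusted p = 0.0433) against Sham, the last lost without any Sham library or rt-PA+Acu replicate 2 (-0.80 to -0.63).

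Plcd4, a phospholipase C, measured 21.8, 25.1 and 21.7 CPM for Sham, 5.42, 4.57 and 3.80 for Model, 4.02, 2.95 and 5.38 for rt-PA and 21.5, 17.2 and 17.1 for rt-PA+Acu. With acupuncture it was close under the Sham libraries, at -2.30 (SE 0.18, adjusted p = 4.16e-05) in Model and 2.17 (SE 0.25, adjusted p = 0.00165) over rt-PA. Ndrg2, a cytoplasmic protein abundant in astrocytes, measured 1739, 1839 and 1382 CPM for Sham, 416, 447 and 652 for Model, 433, 442 and 517 for rt-PA and 1047, 847 and 697 for rt-PA+Acu. Every rt-PA+Acu library lay between rt-PA and Sham, at -1.71 (SE 0.18, adjusted p = 0.00017), 0.90 (SE 0.17, adjusted p = 0.00749) and, against Sham, -0.94 (SE 0.18, adjusted p = 0.0269), the last lost without any Sham library or rt-PA+Acu replicate 2 (-1.05 to -0.86). Btbd17, a gene with a BTB domain, measured 20.7, 23.2 and 15.7 CPM for Sham, 0.153, 0.593 and 1.73 for Model, 0.278, 0.0719 and 0.148 for rt-PA and 13.2, 7.42 and 3.88 for rt-PA+Acu. The rt-PA libraries held 4, 1 and 2 counts, so its levels there are near the limit of detection, and rt-PA+Acu lay between them and Sham. Its log2 fold changes were the largest among the homeostatic genes, -4.58 (SE 0.52, adjusted p = 0.000216) in Model and 5.53 (SE 0.65, adjusted p = 0.00181) in rt-PA+Acu against rt-PA. The gene passed the filter through its Sham libraries in the first comparison and through its rt-PA+Acu libraries in the second. The size of the second value rests on the few rt-PA counts.

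Sox9 and Slc39a12 were not lower in Model. Sox9, the transcription factor that marks astrocyte nuclei in adult cortex, measured 17.8, 33.1 and 18.0 CPM for Sham, 20.2, 23.4 and 25.1 for Model, 24.7, 14.0 and 22.6 for rt-PA and 40.3, 29.5 and 32.4 for rt-PA+Acu. Sham, Model and rt-PA overlapped, and rt-PA+Acu lay above Model and rt-PA. Its log2 fold change was 0.00073 (SE 0.24, adjusted p = 0.998) in Model against Sham and 0.74 (SE 0.23, adjusted p = 0.0425) in rt-PA+Acu against rt-PA, a call lost when any 1 of the 6 libraries was left out (0.52 to 0.89). Slc39a12, a zinc importer, measured 2.66, 3.13 and 17.0 CPM for Sham, 9.92, 9.31 and 11.5 for Model, 8.19, 3.09 and 9.51 for rt-PA and 24.3, 33.5 and 24.6 for rt-PA+Acu. The rt-PA+Acu libraries were above all the other libraries, and Sham replicate 3 was far over the other Sham libraries. Its log2 fold change was 0.45 (SE 0.62, adjusted p = 0.57) in Model against Sham and 1.98 (SE 0.38, adjusted p = 0.00787) in rt-PA+Acu against rt-PA. Without Sham replicate 3 it rose in Model at 1.82 (adjusted p = 0.00173) and in rt-PA+Acu against Sham at 3.24.

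A list of 26 other astrocyte genes holds none of the 35. In Model against Sham 21 fell and 2 rose, where 26.6% of all genes fell and 27.3% rose. The median log2 fold change of the list was -1.34. In rt-PA+Acu against rt-PA 21 rose and 1 fell, where 17% of all genes rose and 17.7% fell, with a median of 0.973. Against Sham 3 fell in rt-PA+Acu and 0 rose, where 3.4% of all genes fell and 1.7% rose. The smallest adjusted p-values in Model were at Daam2, a regulator of Wnt signalling and actin, with -2.70 (SE 0.16, adjusted p = 1.48e-05), Fam107a, an actin-binding stress gene, with -3.94 (SE 0.27, adjusted p = 2.6e-05), Slc1a2, the main glutamate transporter, with -1.35 (SE 0.097, adjusted p = 3.05e-05), and Slc25a18, a mitochondrial glutamate carrier, with -2.27 (SE 0.17, adjusted p = 3.08e-05). In rt-PA+Acu against rt-PA they were at Grin2c, an NMDA receptor subunit, with 2.00 (SE 0.17, adjusted p = 0.00104), Tril, a Toll-like receptor accessory protein, with 3.05 (SE 0.36, adjusted p = 0.00187), Slc6a11, a GABA transporter, with 2.50 (SE 0.30, adjusted p = 0.00195), and Kcnj10, the potassium channel of astrocyte membranes, with 2.44 (SE 0.31, adjusted p = 0.00223).

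A list of other injury-response genes of astrocytes had 31 of its 32 genes in the table. Of the 30 tested, 21 rose and 2 fell in Model against Sham (27.3% and 26.6% of all genes), with a median of 2.57. In rt-PA+Acu against rt-PA, 1 rose and 19 fell (17% and 17.7% of all genes), with a median of -1.84. Of 28 tested against Sham, 6 rose and 1 fell in rt-PA+Acu (1.7% and 3.4% of all genes). In Model the smallest adjusted p-values were at S1pr3, a receptor for sphingosine phosphate, with 3.30 (SE 0.12, adjusted p = 3.41e-06), Hspb1, a small heat shock protein, with 5.51 (SE 0.20, adjusted p = 3.41e-06), Cd14, a co-receptor for bacterial lipid carried mainly by myeloid cells, with 6.80 (SE 0.23, adjusted p = 3.41e-06), and Sphk1, a sphingosine kinase, with 5.29 (SE 0.21, adjusted p = 4.31e-06). In rt-PA+Acu against rt-PA they were at Srgn, a proteoglycan of leukocyte granules, with -2.04 (SE 0.17, adjusted p = 0.00104), Ptx3, a secreted pentraxin, with -4.72 (SE 0.36, adjusted p = 0.00104), and the matrix proteins Tnc, with -3.18 (SE 0.31, adjusted p = 0.00118), and Thbs1, with -4.28 (SE 0.47, adjusted p = 0.00143).

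Most genes of the gp130, JAK and STAT3 route rose in Model, and most fell with acupuncture over rt-PA alone. This list shares Osmr and Clcf1 with that of other injury-response genes, so the lists are not independent. Of 13 tested, 11 rose and 1 fell in Model against Sham (27.3% and 26.6% of all genes). In rt-PA+Acu against rt-PA, 1 rose and 11 fell (17% and 17.7% of all genes). In rt-PA+Acu against Sham 0 of 11 tested passed in edgeR's test, where 1.7% of all genes rose and 3.4% fell. The median log2 fold change of the 11 was 0.426, against 0.0182 for all genes. In Model, Socs3, the feedback inhibitor, was at 5.68 (SE 0.21, adjusted p = 3.41e-06), Stat3 itself at 2.31 (SE 0.12, adjusted p = 8.25e-06), Osmr, the oncostatin M receptor, at 3.10 (SE 0.18, adjusted p = 1.45e-05) and Jak2, the kinase, at 1.89 (SE 0.17, adjusted p = 7.67e-05). In rt-PA+Acu against rt-PA, the cytokines Lif and Il6 were at -4.76 (SE 0.68, adjusted p = 0.00317) and -4.35 (SE 0.62, adjusted p = 0.00324), Jak2 at -1.19 (SE 0.18, adjusted p = 0.00401) and Il6st, which encodes gp130, at -0.95 (SE 0.15, adjusted p = 0.00472).

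**Figure D5:**
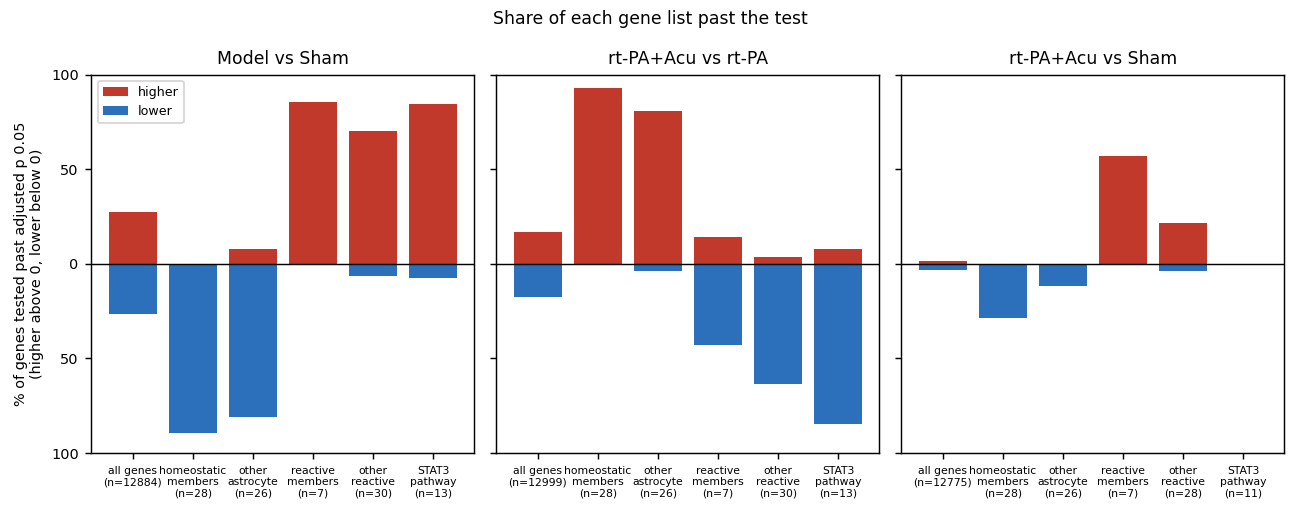
Percent of the genes tested in each list that were past an adjusted p of 0.05, higher above the line and lower below it, in Model against Sham, rt-PA+Acu against rt-PA and rt-PA+Acu against Sham, with all genes at the left of each panel. Both lists of genes of healthy astrocytes are mostly lower in the first panel and mostly higher in the second, the other reactive and STAT3 lists are the reverse, the reactive members are mostly higher in the first and have 3 of 7 lower and 1 of 7 higher in the second, and against Sham the reactive members keep the largest share, 4 of 7.

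Markers of other cells moved over the same groups, and Cd14 is on both the macrophage list and that of other injury-response genes. Of all genes tested, 27.3% rose and 26.6% fell in Model against Sham, and 3.4% fell in rt-PA+Acu against Sham. In rt-PA+Acu against rt-PA, 17% of all genes rose and 17.7% fell. The summed CPM of 9 of 10 monocyte and macrophage genes were 186 to 228 for Sham, 442 to 614 for Model, 1036 to 1824 for rt-PA and 115 to 308 for rt-PA+Acu, and 8 of 8 tested fell in rt-PA+Acu against rt-PA, with 1 of the genes at 0 in each Sham library. In Model against Sham 5 of 8 tested rose and 1 fell. For 8 of 10 endothelial genes the sums were 359 to 435, 253 to 450.1, 311 to 457 and 177 to 223, and 6 of 8 fell against Sham in rt-PA+Acu. Of the 8, 1 rose and 2 fell in Model against Sham, and 1 rose and 6 fell in rt-PA+Acu against rt-PA. For 10 of 10 neuronal genes the sums were 8094 to 8908, 5950.5 to 6311, 4746 to 5990.2 and 5673 to 8903, the lowest rt-PA+Acu library being replicate 3. Of the 10, 2 rose and 4 fell in Model against Sham, and 4 rose and 0 fell in rt-PA+Acu against rt-PA. For 9 of 9 oligodendrocyte genes they were 12557 to 18808, 1747 to 8879.8, 2775 to 11928 and 3396 to 22145, with 8 of 9 lower in Model and 0 of 9 past the test in rt-PA+Acu against rt-PA. The part of these cells in the values of the astrocyte genes was not tested.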

How the data were processed

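Cerebral cortex RNA was sequenced in paired-end reads of 150 bases. The authors deposited raw counts, whole numbers for each gene symbol in each library, neither normalised nor pooled, and report alignment to mRatBN7.2. The submitters' processing notes name STAR 2.7.10a, Salmon 1.9.0 and featureCounts 2.0.1, and the study's methods name Salmon for counting. The annotation release and the use of molecular identifiers in counting are not given in the sources used here. The floor of 3 counts therefore covers counting error only. Overlapping and near-identical genes were not separated.

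Libraries were grouped by their deposited labels, and the 6 libraries of a comparison were fitted alone in R 4.3.3 with edgeR 4.0.16 (TMM, filterByExpr, quasi-likelihood test with Benjamini-Hochberg adjustment). Library log2 values used a prior count of 2. Standard errors were taken from the fold change and its F value. The alternatives were DESeq2 1.42.0, RLE size factors, library size alone, any gene with a count, a minimum of 10 counts throughout, a joint fit of the 12 libraries, a replicate block and leaving out each library. Members and lists, which were other astrocyte genes, other reactive genes, the STAT3 route and 12 further cell type lists, were chosen with earlier results of these data known. All members are named. CPM in every library are given for members that were DEGs in 1 of the 3 comparisons of the study and for Gfap, Aqp4, Aldh1l1, Glul, Apoe and Sox9, and also for Fabp7 and Steap4, which were added after their values were seen. Of the other lists, the 4 genes with the smallest adjusted p in 2 comparisons are named. On simulated counts with 200 genes changed 4-fold, edgeR recovered 94.5% of them in Model against Sham, 85% in rt-PA against Model and 93% in rt-PA+Acu against rt-PA, and at 2-fold 72.5%, 64% and 49%. In each run 6 to 14 unchanged genes were called. Genes were drawn independently and only 200 changed, unlike these data, so the shares check the fit and are not its power here. Figures used Python 3.11.15 and matplotlib 3.10.9.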

Additional observations from a re-analysis of the deposited data

How the results depend on the processing

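No log2 fold change of an astrocyte gene that had passed the test changed sign under any alternative run. In rt-PA+Acu against rt-PA, library size alone lost the calls of Fabp7, Aldh1l1, Sox9 and Cbs. The replicate block lost those of Fabp7, Aldh1l1, Cbs and Apoe, and 1 fit over all 12 libraries those of Cbs and Dio2. In rt-PA+Acu against Sham, the block lost the calls of Lcn2, Fabp7, Aldh1l1, Glul and Ttyh1. There 1 fit over all 12 libraries lost those of Aldh1l1, Ntsr2, Glul and Cbs. Of 156 recounts of the 12 counts of astrocyte genes past the test (homeostatic or reactive, in 6 comparisons), 134 stayed within 1.5 times the count reported and 22 did not. DESeq2 called 1 reactive gene in rt-PA against Model where edgeR called 0, and 14 homeostatic genes in rt-PA+Acu against Sham where edgeR called 8, and 1 fit over all 12 libraries called 4 of the latter. Same-numbered libraries were not paired by the labels, and their deviations correlated at -0.254 to 0.146, so the numbers were not taken as pairs. With the replicate number as a block, rt-PA+Acu against Sham gave 2 reactive genes in place of 4, and rt-PA+Acu against Model gave 14 homeostatic genes in place of 22 and 1 reactive gene in place of 2. Without each library in turn, homeostatic counts ranged from 25 to 26 in Model against Sham, 22 to 25 in rt-PA+Acu against rt-PA, 1 to 14 in rt-PA+Acu against Sham and 14 to 25 in rt-PA+Acu against Model, and reactive counts from 2 to 5, 1 to 5 and 1 to 4 in the last 3 of these. Fewer libraries were in those fits. The cause of the other shifts was not tested. Over all genes, DESeq2 called 192 in rt-PA against Model (74 DEGs) where edgeR called 0, and in rt-PA+Acu against Sham 1435 (422 DEGs) where edgeR called 651 (263 DEGs). The block gave 289 in rt-PA+Acu against Sham and 2693 in rt-PA+Acu against Model in place of 4411. Leaving out a library gave 112 to 856 genes (82 to 359 DEGs) in rt-PA+Acu against Sham, 2546 to 5257 in rt-PA+Acu against Model and 2496 to 5417 in place of 4522 in rt-PA+Acu against rt-PA. Library size alone moved the median log2 fold change of all genes from 0.00278 to 0.149 in rt-PA against Sham and took the share of calls that were higher from 50.1% to 62.2%. With 3 libraries a group, changes near 2-fold were often missed on simulated counts.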

Other observations

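Markers of the remaining cell types, none of them on the astrocyte lists used here, were read on the same libraries. Whether astrocytes add to their counts was not tested. Of all genes tested, 27.3% rose and 26.6% fell in Model against Sham. In rt-PA+Acu against rt-PA, 17% rose and 17.7% fell. Counts near these shares are not read as a change of the cell type. Oligodendrocyte precursor genes fell at 6 of 7 in Model against Sham, and 2 rose and 1 fell of 7 in rt-PA+Acu against rt-PA. Homeostatic microglia genes rose at 2 and fell at 6 of 9 tested in Model against Sham, and rose at 3 and fell at 1 of 9 in rt-PA+Acu against rt-PA. Neutrophil genes had summed levels of 7.26 to 11.8 CPM in Sham, 4.96 to 17.1 in Model, 15.1 to 82.1 in rt-PA and 3.73 to 5.48 in rt-PA+Acu. Which cells the Lcn2 counts came from was not tested. Pericyte and smooth muscle genes fell at 3 of 7 in Model against Sham, and 1 rose and 4 fell of 7 in rt-PA+Acu against rt-PA. Meningeal and fibroblast genes fell at 1 of 7 in Model against Sham, and 1 rose and 2 fell of 7 in rt-PA+Acu against rt-PA. Summed levels stayed at or under 8.22 CPM for red blood cell genes, 17.1 CPM for choroid plexus genes and 17.5 CPM for ependymal genes in all libraries. At red blood cell genes 0 of 1 tested passed in either comparison, at choroid plexus genes the 1 tested rose in Model against Sham and fell in rt-PA+Acu against rt-PA, and at ependymal genes 1 of 5 fell in Model against Sham and 0 of 5 passed in rt-PA+Acu against rt-PA.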
